A study of Mus musculus with 8 samples.

Results

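The neutrophil genes S100a8, S100a9, Csf3r, Cxcr2, Fpr1, Fpr2, Retnlg, Mmp8, and Pglyrp1 were followed with the cytokine gene Csf3 through RNA-Seq of mouse pancreas. The 10 genes were taken by symbol, and all were listed in every library among 48709 genes. Male 8-week-old mice were either wild type (WT) or pancreas-specific knockout for Pfkfb3 (cKO), and each genotype received saline or palmitoleic acid (POA) with ethanol, the fatty acid ethyl ester model of severe acute pancreatitis (FAEE-SAP). Pancreas was collected 24 hours after induction, with 2 libraries, described as biological replicates, in each of the 4 groups. The cKO mice carried Pfkfb3 fl/fl with Cre under the Pdx1 promoter, which is active in the pancreatic epithelial lineage and not in neutrophils. By the methods, WT mice came from a commercial supplier and cKO mice were bred from floxed and Cre lines, so genotype and origin of the mice cannot be told apart in any contrast of WT with cKO. All mice were fasted, and FAEE-SAP mice also received buprenorphine, so the treatment contrast holds the analgesic as well as POA and ethanol. Pfkfb3 encodes a regulator of glycolysis. Its scaled RPKM ranged over the libraries from 0.880 to 3.21, and limma called it in none of the 5 comparisons. Whole-gene values cannot show the loss of a short floxed region, so they do not check the genotype labels.

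Neutrophils are made in the bone marrow under granulocyte colony-stimulating factor (G-CSF), the product of Csf3, which acts through the receptor encoded by Csf3r. They leave the blood along gradients of chemokines read by CXCR2 and of formylated peptides and other agonists read by the receptors encoded by Fpr1 and Fpr2. In the inflamed pancreas, they are among the earliest cells to arrive. S100a8 and S100a9 encode the subunits of calprotectin, an abundant protein of the neutrophil cytosol. Retnlg encodes a resistin-like protein of mouse neutrophils, Mmp8 encodes neutrophil collagenase, and Pglyrp1 encodes a bactericidal peptidoglycan recognition protein of granules. None of these genes is exclusive to neutrophils. Monocytes and some macrophages also express S100a8, S100a9, Fpr1, and Fpr2, squamous epithelium expresses the calprotectin genes, and Csf3 is made mainly by stromal, endothelial, epithelial, and myeloid cells rather than by neutrophils. In bulk tissue, fewer cells of a type and less RNA per cell cannot be told apart.

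By the GENCODE vM21 annotation of GRCm38, all 10 genes are protein coding. S100a8 (ENSMUSG00000056054.9) lies on chromosome 3 from 90668978 to 90670035 on the plus strand. S100a9 (ENSMUSG00000056071.12) is 22596 bases away, from 90692632 to 90695721 on the minus strand. Fpr1 (ENSMUSG00000045551.7, chromosome 17, 17876471 to 17883940, minus strand) and Fpr2 (ENSMUSG00000052270.7, 17887824 to 17893952, plus strand) are 3883 bases apart and are read in opposite directions. Csf3 is on chromosome 11 (98701263 to 98703629), Csf3r on chromosome 4 (126024550 to 126044440), and Cxcr2 on chromosome 1 (74153989 to 74161246). Retnlg is on chromosome 16 (48872621 to 48874496), Mmp8 on chromosome 9 (7558456 to 7568485), and Pglyrp1 on chromosome 7 (18871331 to 18890459).

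Promoters are printed for S100a9, for the neighbors Fpr1 and Fpr2, whose levels moved together, and for Cxcr2, a receptor gene that was not called between genotypes. Each is the 250 bases before the RefSeq start in GRCm38.p6, written 5′ to 3′ on the gene's strand, with matches to the motifs searched in capitals.
S100a9 (chr3:90695722-90695971, minus strand): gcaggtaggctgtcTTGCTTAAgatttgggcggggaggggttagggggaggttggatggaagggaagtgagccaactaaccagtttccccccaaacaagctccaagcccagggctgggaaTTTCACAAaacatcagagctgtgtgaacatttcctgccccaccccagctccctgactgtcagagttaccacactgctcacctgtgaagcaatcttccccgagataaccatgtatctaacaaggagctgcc
Fpr1 (chr17:17883940-17884189, minus strand): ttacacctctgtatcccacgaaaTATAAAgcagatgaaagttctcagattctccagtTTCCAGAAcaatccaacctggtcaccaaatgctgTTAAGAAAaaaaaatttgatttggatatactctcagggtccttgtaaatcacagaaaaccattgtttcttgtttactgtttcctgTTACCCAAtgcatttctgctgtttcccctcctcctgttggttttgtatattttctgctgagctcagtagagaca
Fpr2 (chr17:17887574-17887823, plus strand): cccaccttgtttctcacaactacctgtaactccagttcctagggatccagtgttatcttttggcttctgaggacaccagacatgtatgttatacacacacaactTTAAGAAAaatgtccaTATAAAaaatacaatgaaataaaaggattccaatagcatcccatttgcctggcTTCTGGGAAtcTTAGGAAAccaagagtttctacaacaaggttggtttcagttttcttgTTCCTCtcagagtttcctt
Cxcr2 (chr1:74153744-74153993, plus strand): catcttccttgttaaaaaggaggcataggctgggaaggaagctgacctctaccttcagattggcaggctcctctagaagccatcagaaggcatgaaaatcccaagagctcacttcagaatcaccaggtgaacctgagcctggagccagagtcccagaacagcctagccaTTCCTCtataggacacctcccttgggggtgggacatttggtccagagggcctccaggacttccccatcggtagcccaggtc
RefSeq promoters of 9 of the 10 genes were at hand, and both strands of each window were searched. The C/EBP motif, spelled TTNNGNAA, was in 6 of the 9 windows and in 36.8% of 32851 promoters of the same length. The PU.1 motif GAGGAA was in 6 of the 9 and in 23.3% of all. Fpr1 held 3 C/EBP matches, and Fpr2 held 2 beside a STAT motif (TTCNNNGAA, in 7.02% of all promoters) that lay 77 to 69 bases before its start. In S100a8, a C/EBP match lay 117 to 110 bases before the start and the TATA box TATAAA, found in 12.4% of all promoters, lay 30 to 25 bases before it. The NF-kB motif was found in the window of Pglyrp1 and in 0.98% of all promoters, and the AP-1 motif TGANTCA was in 0 of the 9 and 6.75% of all. Matches with such common motifs describe letters in the windows and are not binding sites.

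The deposited values are RPKM, that is, reads per kilobase of exon relative to the mapped reads of the library. Library totals worked out from them ran from 22.9 to 37.8 M reads, and each value of the 10 genes is given as RPKM scaled to the median of ratios over all 8 libraries. The scaling factors were 2.02 and 1.94 for WT FAEE-SAP, 1.05 and 0.9754 for cKO FAEE-SAP, and 0.621 to 0.866 for saline. The same factors divide every gene of a library, so ratios of genes within a library do not depend on them. Differences were tested with limma on log2(scaled RPKM + 0.1), each comparison scaled on its own libraries, and p-values were adjusted over all genes tested by the Benjamini-Hochberg method. Calls needed both an adjusted p-value under 0.05 and at least a 2-fold change. Log2 fold changes on this scale understate the change of low genes. The smallest p-value that an exact two-sided permutation of 2 libraries against 2 allows is 0.33, so none is given.

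In WT pancreas, 9 of the 10 genes were called higher with FAEE-SAP than with saline, with log2 fold changes of 1.62 to 5.88, and Pglyrp1 was not called. Among all 10894 genes tested, 3.08% were called higher and 3.86% lower. Both FAEE-SAP libraries lay above both saline libraries for 10 of the 10 genes, against 29.7% of all genes. The median log2 fold change was 3.49 over the 10 genes and 0.02 over all genes tested. Genes were tested where RPKM was at least 0.5 in at least 2 of the libraries compared, and 8 of the 10 (all but S100a9 and Pglyrp1) passed through the FAEE-SAP libraries alone. They had to differ to be tested, so these counts and medians are descriptions.

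The calprotectin genes were the most abundant members per kilobase in WT FAEE-SAP. S100a9 had a scaled RPKM of 0.649 and 0.971 in the WT saline libraries and 33.1 and 29.2 in WT FAEE-SAP. Its log2 fold change was 5.15 (SE 0.24, limma adjusted p = 0.00146). S100a8 had 0.140 and 0.304 in WT saline and 18.6 and 15.8 in WT FAEE-SAP, a log2 fold change of 5.88 (SE 0.31, limma adjusted p = 0.00204). These values rest on 2 and 5 reads of S100a8 with saline and on 598 and 693 reads with FAEE-SAP, so the saline end of the change is loosely known.

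Both formyl peptide receptor genes were close to silent in WT saline. Fpr1 had 0 reads in both libraries and 162 and 169 reads in WT FAEE-SAP, with scaled RPKM of 2.64 and 2.01. Set against a floor of 3 reads in each saline library, it was at least 22.6-fold higher, and its fitted log2 fold change was 4.89 (SE 0.28, limma adjusted p = 0.00243). Fpr2 had 1 and 0 reads in WT saline and 89 and 158 in WT FAEE-SAP (scaled RPKM 1.48 and 1.92). The pooled ratio was 99.7, with an exact 95% counting interval of 17.7 to 3955. The fitted log2 fold change of Fpr2 was 4.18 (SE 0.33, limma adjusted p = 0.00357). Fpr2 has close paralogs, and reads shared with them could be split by the counting. Counting intervals and floors cover counting error only, not differences between mice.

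Csf3 had 0 reads in all 4 saline libraries. It had 23 and 52 reads in WT FAEE-SAP, with scaled RPKM of 0.351 and 0.581, and was at least 4.84-fold higher than the floor of 3 reads in each saline library. The fitted log2 fold change was 2.73 (SE 0.35, limma adjusted p = 0.0137). Its receptor gene Csf3r went from 0.161 and 0.293 to 0.877 and 0.818, a log2 fold change of 1.62 (SE 0.31, limma adjusted p = 0.0388). Without WT saline replicate 1, Csf3r lost its call, with a log2 fold change of 1.35 and a limma adjusted p of 0.106, and the call was also lost without the filter on low values (limma adjusted p = 0.0852) and with a replicate block (0.0759). Cxcr2 had 0.0476 and 0.0970 in WT saline and 0.813 and 0.792 in WT FAEE-SAP, a log2 fold change of 2.55 (SE 0.30, limma adjusted p = 0.0113). Per kilobase, Csf3r and Cxcr2 stood at neighboring levels in WT FAEE-SAP.

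The secreted and granule proteins had changes of different sizes. Retnlg went from 0.318 and 0.556 to 5.14 and 6.46 (log2 fold change 3.53, SE 0.30, limma adjusted p = 0.0043). Mmp8, with 0 and 1 reads in WT saline and 93 and 149 in WT FAEE-SAP, went from 0 and 0.0172 to 0.817 and 0.959 (log2 fold change 3.45, SE 0.30, limma adjusted p = 0.00458). Pglyrp1 had the smallest difference of the 10. Its levels were 0.393 and 0.723 in WT saline and 1.20 and 1.55 in WT FAEE-SAP, and its log2 fold change of 1.23 (95% interval 0.41 to 2.04) had a limma adjusted p of 0.0796. When either WT FAEE-SAP library was left out, 2 of the 10 genes passed the filter on low values, and S100a9 was called in both cases.

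**Figure D1:**
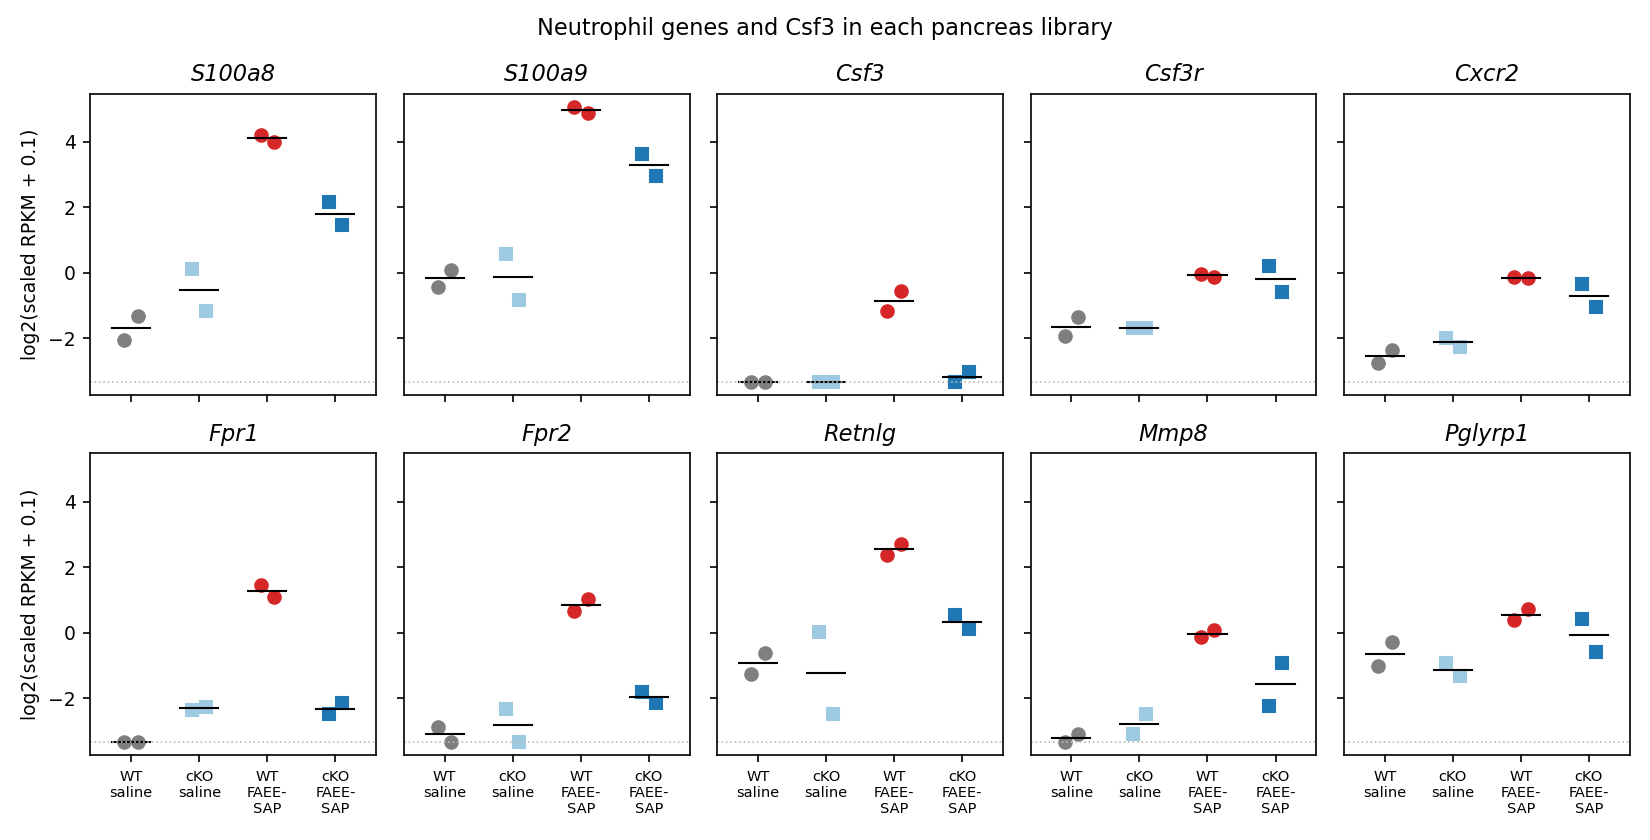
Each panel shows 1 gene, with log2(scaled RPKM + 0.1) on the vertical axis and the 4 groups on the horizontal axis. Points are libraries, bars are means of 2, and the dotted line marks a value of 0. Points of WT FAEE-SAP lie above both saline groups in every panel, whereas cKO FAEE-SAP lies near WT FAEE-SAP for Csf3r and near saline for Csf3 and Fpr1.

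In cKO pancreas, no gene of the group was called between FAEE-SAP and saline without a block for replicate number. S100a8, S100a9, Csf3r, Retnlg, and Pglyrp1 had enough expression to be tested. Limma and the weighted limma model on reads each called 0 of them. An unadjusted p-value under 0.05 was found for 3 of the 5, against 9.42% of all genes. Csf3r and Pglyrp1 passed the filter through the FAEE-SAP libraries alone, so this count is a description. With replicate number as a block, limma called S100a8 and S100a9 (adjusted p 0.0253 and 0.0141). Across all 9423 genes, 5 were called, all higher, or 0.0531%, so few genes of any kind passed in this comparison. S100a9 went from 1.39 and 0.459 with saline to 12.1 and 7.62 with FAEE-SAP, with a log2 fold change of 3.40 (SE 0.53, limma adjusted p = 0.255). S100a8 had 0.984 and 0.345 against 4.39 and 2.63 (log2 fold change 2.32, SE 0.50, limma adjusted p = 0.366). Csf3r values were 0.213 and 0.212 with saline and 1.06 and 0.560 with FAEE-SAP, with a log2 fold change of 1.44 (95% interval 0.50 to 2.38, limma adjusted p = 0.426). The FAEE-SAP libraries of cKO lay above the saline libraries for 19.6% of all genes tested. They did so for 8 of the 10 genes, but Cxcr2, Fpr2, and Mmp8 among the 8 were under the filter and outside that share.

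The exceptions were Fpr1 and Csf3. Fpr1 had 3 and 3 reads with saline and 3 and 5 reads with FAEE-SAP, with scaled RPKM of 0.0967 and 0.109 against 0.0785 and 0.125. The groups overlap, and the pooled ratio was 1.001 with an exact 95% counting interval of 0.305 to 3.50. Csf3 had 0 and 1 reads in cKO FAEE-SAP. The saline libraries of the genotypes were compared as the baseline. Of the 10 genes, S100a9 was the only one with enough expression to be tested, with a log2 fold change of 0.01 (95% interval -1.32 to 1.33, limma adjusted p = 0.999). In that comparison limma called 0 of 8715 genes (0.00% higher), 187 had an unadjusted p-value under 0.05, and the weighted model on reads called 0. Both cKO saline libraries lay above both WT saline libraries for S100a8, Fpr1, Cxcr2, and Mmp8, which were all under the filter. Of the genes tested, 16.3% did so. Fpr1 had 6 reads in cKO saline against 0 in WT saline. S100a8 had 21 reads against 7 (exact 95% counting interval of the ratio 1.23 to 8.35). Without the filter, Fpr1 had an unadjusted p of 0.00329 and S100a8 of 0.088, and both had a limma adjusted p of 0.997.

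With FAEE-SAP, 10 of the 10 genes had lower fitted levels in cKO than in WT, with log2 fold changes of -3.80 to -0.13. The 4 genes Fpr1, Fpr2, S100a8, and Retnlg were called lower, while 0.409% of the 11008 genes tested were called lower. All 4 calls were lost without the filter on low values (limma adjusted p 0.0832 to 0.111), and the weighted limma model on reads kept S100a8 alone (adjusted p 0.037, with 0.0504 for Fpr1). Both cKO libraries lay below both WT libraries for 8 of the 10 genes, against 25.3% of all genes, and Csf3r and Pglyrp1 overlapped. The median log2 fold change was -1.98 for the 10 genes and -0.01 for all genes tested. Csf3, Fpr1, Fpr2, and Mmp8 passed the filter through the WT libraries alone. Because the WT FAEE-SAP libraries are shared with the treatment contrast above, the higher levels in WT and the lower levels in cKO are not separate evidence.

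Fpr1 had the largest fitted log2 fold change of the 10. By the ratio of means, Csf3, with 1 read in cKO, had the larger difference (39.7 against 22.8). Scaled RPKM in WT was 2.64 and 2.01 against 0.0785 and 0.125 in cKO, from 331 reads against 8. The log2 fold change was -3.80 (SE 0.30, limma adjusted p = 0.0156). Its neighbor Fpr2 had 1.48 and 1.92 in WT and 0.187 and 0.128 in cKO, a log2 fold change of -2.97 (SE 0.30, limma adjusted p = 0.0188). For both genes the distance between groups was many times the distance between libraries of a group. The test of whether the response to FAEE-SAP differed between genotypes gave -4.60 for Fpr1 (SE 0.43, limma adjusted p = 0.038) and -3.07 for Fpr2 (SE 0.59, limma adjusted p = 0.151). Of the 10 genes, that test called Fpr1 alone, with 0.0269% of 11133 genes called lower, and the call was lost in each of the 6 fits without 1 library in which it was tested (limma adjusted p 0.0709 to 0.174).

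S100a8 had 18.6 and 15.8 in WT FAEE-SAP against 4.39 and 2.63 in cKO, a log2 fold change of -2.32 (SE 0.28, limma adjusted p = 0.0302). S100a9 had 33.1 and 29.2 against 12.1 and 7.62. Its log2 fold change of -1.70 (SE 0.26) had a limma adjusted p of 0.0517, which is just over the threshold. Within each library, S100a8 was 0.560 and 0.540 of S100a9 in WT FAEE-SAP against 0.362 and 0.345 in cKO. The ratio was thus lower in both cKO libraries. With saline it was higher in both cKO libraries, at 0.215 and 0.313 in WT against 0.708 and 0.752 in cKO, on few reads.

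Retnlg had 5.14 and 6.46 in WT and 1.37 and 0.982 in cKO (log2 fold change -2.26, SE 0.26, limma adjusted p = 0.0255). Mmp8 was uneven in cKO, with 0.113 and 0.433 from 8 and 32 reads against 0.817 and 0.959 in WT, and its log2 fold change of -1.66 (SE 0.51) had a limma adjusted p of 0.176. Pglyrp1 overlapped between genotypes, at 1.20 and 1.55 in WT and 1.25 and 0.568 in cKO. Its log2 fold change was -0.66 (95% interval -1.62 to 0.30, limma adjusted p = 0.416).

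Reads of Csf3 numbered 23 and 52 in WT but 0 and 1 in cKO. The pooled ratio of WT to cKO was 40.4 with an exact 95% counting interval of 7.02 to 1615. The fitted log2 fold change of -2.69 (SE 0.41) had a limma adjusted p of 0.0508, close to the threshold but not past it. The receptor gene Csf3r was not called. It had 0.877 and 0.818 in WT and 1.06 and 0.560 in cKO, with a log2 fold change of -0.13 (95% interval -0.96 to 0.70, limma adjusted p = 0.868), and the cKO libraries enclosed the WT libraries. An interval this wide does not show equal levels. Cxcr2 was at 0.813 and 0.792 in WT and 0.693 and 0.381 in cKO (log2 fold change -0.58, 95% interval -1.39 to 0.23, limma adjusted p = 0.392).

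**Figure D2:**
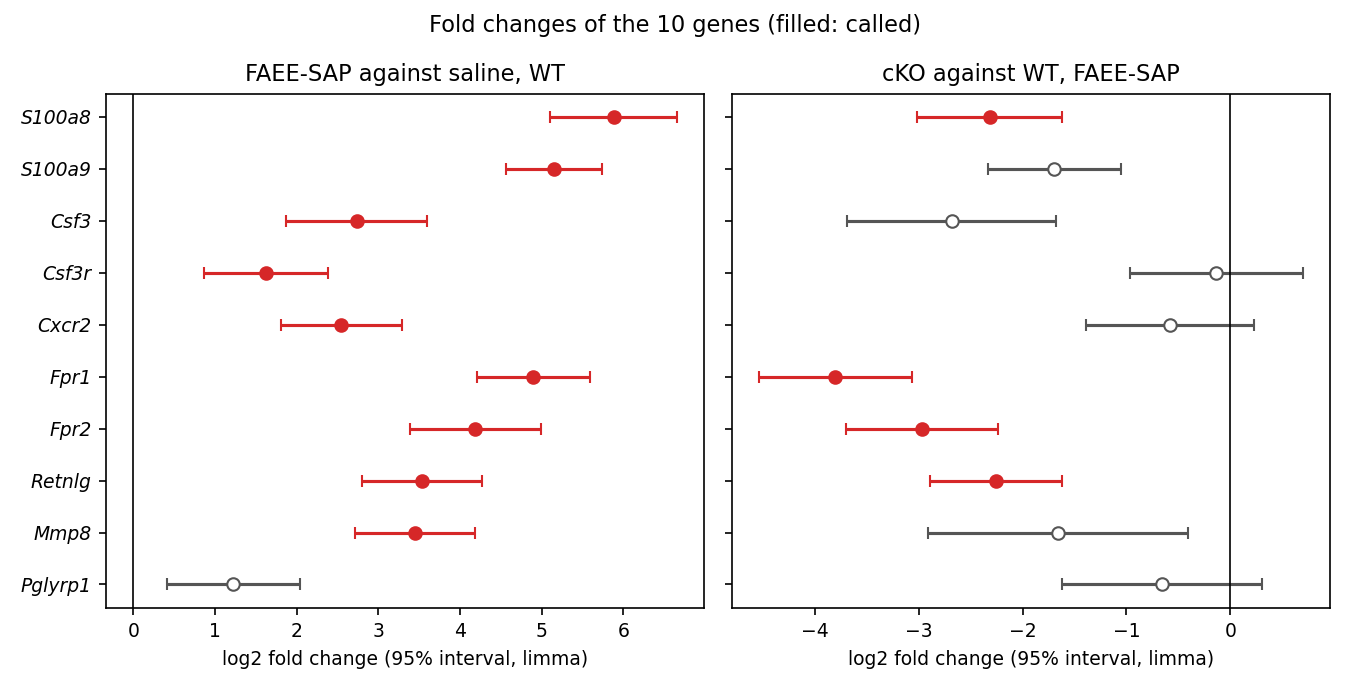
Log2 fold changes of the 10 genes from limma, with 95% intervals, for FAEE-SAP against saline in WT (left) and for cKO against WT with FAEE-SAP (right). Filled points were called, which is 9 of 10 on the left and 4 of 10 on the right. Intervals of Csf3r, Cxcr2, and Pglyrp1 cross 0 on the right.

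The 4 calls depend on the filter and on both WT FAEE-SAP libraries. Without the filter, limma called 0 of 19535 genes, with 2739 genes and 7 of the 10 members at an unadjusted p-value under 0.05. Without WT FAEE-SAP replicate 1 or replicate 2, limma called 0 of all genes, Fpr1, Fpr2, Csf3, and Mmp8 no longer passed the filter on low values, S100a8 had limma adjusted p-values of 0.142 and 0.252, and Retnlg had 0.103 and 0.234. Without cKO FAEE-SAP replicate 2, Retnlg had a limma adjusted p of 0.0535, Mmp8 of 0.0423, and the log2 fold change of Csf3r turned to 0.27. Csf3 passed without either cKO library (limma adjusted p 0.0392 and 0.0343), and S100a9 passed without cKO replicate 1 (limma adjusted p = 0.0357). Scaling bears on the genes with small differences. As deposited, without scaling, the median log2 difference of all genes was -0.91, the values of Csf3r were 1.78 and 1.58 in WT and 1.104 and 0.547 in cKO, its log2 fold change was -1.01 (limma adjusted p = 0.0554), and all members but Csf3r were called lower.

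Ratios within a library do not depend on scaling, and they show how the members differ among themselves. Relative to Csf3r, Fpr1 was 3.004 and 2.46 in WT FAEE-SAP against 0.0743 and 0.223 in cKO. Fpr2 was 1.69 and 2.35 against 0.177 and 0.228, and S100a8 was 21.2 and 19.3 against 4.16 and 4.69. S100a9 was 37.8 and 35.7 times Csf3r in WT and 11.5 and 13.6 times in cKO. Retnlg was 5.86 and 7.90 against 1.30 and 1.75. For each of these the libraries of the genotypes were apart, with the higher ratios in WT. Csf3 was 0.400 and 0.710 against 0 and 0.0419, on 0 and 1 reads in cKO, and Mmp8 was 0.931 and 1.17 against 0.107 and 0.772. Cxcr2, at 0.926 and 0.969 against 0.657 and 0.679, and Pglyrp1, at 1.37 and 1.90 against 1.18 and 1.01, had small differences between the groups. The nearest libraries of Mmp8 (0.931 and 0.772) were also close. These ratios are descriptions with 2 libraries a group and were not tested.

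**Figure D3:**
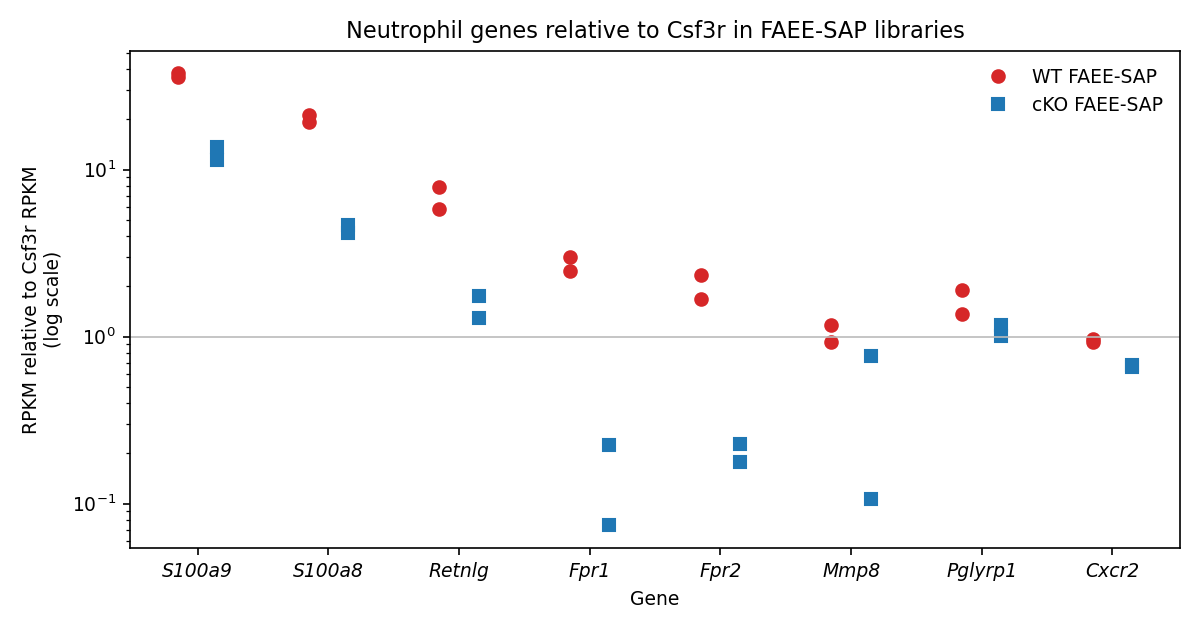
RPKM of the 8 genes other than Csf3 and Csf3r relative to the RPKM of Csf3r in the same library (log axis), for the 2 WT FAEE-SAP and 2 cKO FAEE-SAP libraries. The WT points lie above the cKO points for each of the 8 genes, by the most for Fpr1 (3.004 and 2.46 against 0.0743 and 0.223). They do so by little for Pglyrp1, Cxcr2, and the nearest libraries of Mmp8 (0.931 against 0.772).

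The ligand genes of CXCR2 had values in either direction. Cxcl1 and Cxcl2 were called lower in cKO with FAEE-SAP, though both passed the filter through the WT libraries alone and neither call held without the filter, and Ppbp, a chemokine gene of platelets, had its higher values in cKO. Cxcl1 had 4.57 and 1.85 in WT and 0.254 and 0.209 in cKO, a log2 fold change of -3.32 (limma adjusted p = 0.0377). Cxcl2 had 1.21 and 2.40 against 0.105 and 0.117 (log2 fold change -3.30, limma adjusted p = 0.0267). Cxcl5 had 6.76 and 2.19 against 0.390 and 0.0712, with a log2 fold change of -3.95 and a limma adjusted p of 0.0779. Cxcl3 was nearer, at 0.636 and 1.88 against 0.443 and 0.522 (log2 fold change -1.098, limma adjusted p = 0.298). Ppbp had 0.378 and 0.772 in WT and 2.81 and 1.65 in cKO, with a log2 fold change of 1.85 and a limma adjusted p of 0.11. In WT, all 5 ligand genes were called higher with FAEE-SAP than with saline, and all 5 passed the filter through the FAEE-SAP libraries alone. Over the list of neutrophil chemoattractant genes and receptors that holds them, 8 of 19 tested genes were called higher in WT, against 3.08% of all genes. Of these 8, 7 passed the filter through the FAEE-SAP libraries alone, so the count is a description. Among 25 neutrophil chemoattractant genes and receptors, 24 were in the files, 19 were tested, and Cxcl1 and Cxcl2 were the only ones called in cKO against WT (0.409% of all genes were called lower), with a list median log2 fold change of -0.12.

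**Figure D4:**
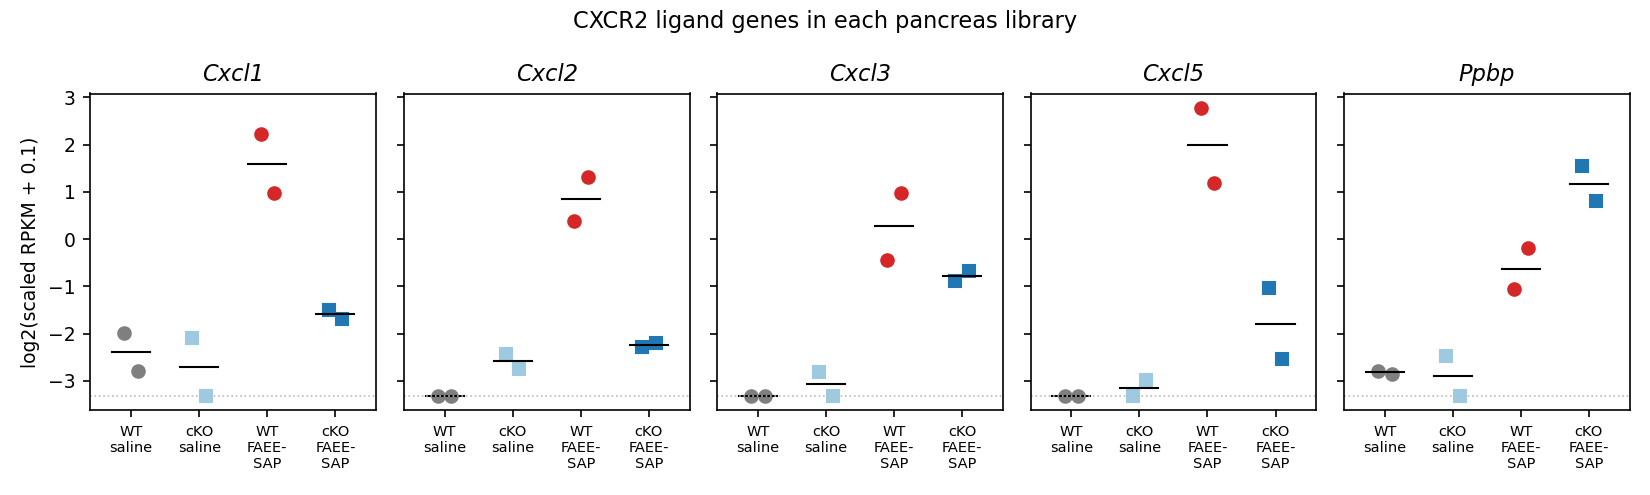
Log2(scaled RPKM + 0.1) of 5 genes of CXCR2 ligands in each library, with bars for the means of 2 and a dotted line at a value of 0. Cxcl1, Cxcl2, and Cxcl5 are highest in the WT FAEE-SAP libraries, whereas Ppbp is highest in the cKO FAEE-SAP libraries (2.81 and 1.65 scaled RPKM).

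Genes of G-CSF production and signaling were also called in WT. Of 26 genes, 22 were tested in each of these contrasts. With FAEE-SAP in WT, limma called 4 higher and 1 lower, against 3.08% and 3.86% of all genes, and 2 of the 5 passed the filter through 1 group alone. They include Il1b, a cytokine that induces Csf3 (log2 fold change 3.52, limma adjusted p = 0.0137), and Socs3, a feedback inhibitor of the receptor (3.26, limma adjusted p = 0.00458). The gene called lower was Gfi1, a transcriptional repressor that acts in granulocyte development, with a log2 fold change of -1.91. In cKO against WT with FAEE-SAP, limma called 0 of the 22, against 0.409% of all genes called lower and 0.863% higher. An unadjusted p-value under 0.05 was found for 7 of the 22, against 19.5% of all genes, 17 had negative fold changes, and the list median was -0.27. Socs3 had 12.5 and 8.70 in WT and 5.26 and 1.94 in cKO, with a limma adjusted p of 0.154. Gfi1 went the other way, with 0.206 and 0.229 in WT and 0.832 and 0.695 in cKO (log2 fold change 1.52, limma adjusted p = 0.0797).

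The list of other neutrophil granule genes held calls in WT. Of 20 genes, 13 were tested, and limma called 7 higher with FAEE-SAP in WT, against 3.08% of all genes, of which 4 passed the filter through the FAEE-SAP libraries alone. Lcn2, which encodes the iron-scavenging protein lipocalin-2 and is also made by injured epithelium, had 0.849 and 1.02 in WT saline and 259 and 259 in WT FAEE-SAP (log2 fold change 8.00, limma adjusted p = 0.00012). It had 21.7 and 68.7 in cKO FAEE-SAP. Limma called 0 of the 13 in cKO against WT, where 0.409% of all genes were called lower, with 7 at an unadjusted p-value under 0.05 against 19.5% of all genes and a list median of -0.49. Chil3, a chitinase-like protein gene also expressed by macrophages, had 5.87 and 5.46 in WT FAEE-SAP against 9.34 and 17.0 in cKO, with the higher values in cKO (limma adjusted p = 0.158). Of 30 other neutrophil surface and cytosolic genes, 29 were in the files and 18 were tested. Acod1, which encodes the enzyme that makes itaconate in activated myeloid cells, was the only one called lower in cKO, from 70 and 54 reads to 0 and 1 (log2 fold change -2.72, limma adjusted p = 0.0491). It passed the filter through the WT libraries alone, and the call did not hold without the filter. The median of that list was -1.15, with 14 of 18 negative. With FAEE-SAP in WT, 10 of its genes were called higher, against 3.08% of all genes, and 9 of the 10 passed through the FAEE-SAP libraries alone.

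Calprotectin acts outside the cell on Toll-like receptor 4, which signals through MyD88 with CD14 as a co-receptor. Of 18 genes for these receptors and for other S100 proteins, 13 were tested, and Cd14 and Myd88 were called lower in cKO with FAEE-SAP, against 0.409% of all genes, calls that did not hold without the filter. Tlr4 itself had 0.396 and 0.355 in WT against 0.542 and 0.328 in cKO (log2 fold change 0.14, 95% interval -0.66 to 0.95, limma adjusted p = 0.853). Cd14 had 14.3 and 12.6 in WT and 2.40 and 2.74 in cKO (log2 fold change -2.37, limma adjusted p = 0.0156), and Myd88 had 8.04 and 9.57 against 2.81 and 2.39 (log2 fold change -1.74, limma adjusted p = 0.0317). Other S100 genes had values in either direction. S100a4 had 2.40 and 3.08 in WT and 7.65 and 6.93 in cKO, with a log2 fold change of 1.39 and a limma adjusted p of 0.0618. S100a6 (4.995 and 4.14 against 8.03 and 7.93) and S100a10 (4.18 and 4.43 against 10.7 and 7.55) also had their higher values in cKO, whereas S100a11 had 40.3 and 32.7 in WT and 27.0 and 20.4 in cKO. These 4 genes were chosen after their values were seen, and limma called none of them between the genotypes. With FAEE-SAP in WT, limma called Cd14, Myd88, and S100a11 higher and S100a1 lower among the 13 tested, against 3.08% and 3.86% of all genes. The list median in cKO against WT with FAEE-SAP was 0.17. Of 8 relatives of Retnlg, Mmp8, and Pglyrp1, 2 were tested between the genotypes and neither was called, with neither at an unadjusted p-value under 0.05. Retn, which encodes resistin, was called higher in WT with FAEE-SAP (log2 fold change 1.57, limma adjusted p = 0.0234), where 3.08% of all genes were, and passed the filter through the FAEE-SAP libraries alone. Across the 6 lists, limma called 0 genes between FAEE-SAP and saline in cKO, where up to 4 genes a list had an unadjusted p-value under 0.05 (9.42% of all genes), and 0 genes for the difference in response, where up to 7 did (12.6% of all genes).

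The markers that define neutrophils were checked alongside. The summed level of 13 neutrophil markers was 1.66 to 2.75 in WT saline, 1.67 to 3.99 in cKO saline, 57.5 to 61.3 in WT FAEE-SAP, and 14 to 20.45 in cKO FAEE-SAP, but 6 of the 13 are members of the group described and carry most of the sum. With FAEE-SAP, 9 of the 13 were lower in both cKO libraries than in both WT libraries, against 25.3% of all genes tested. These 9 include the members S100a8, S100a9, Retnlg, Cxcr2, and Mmp8, already described above. The rest of the 9 are Ngp, Cd177, Ly6g, and Ltf, of which Ly6g and Ltf were under the filter. Camp, Elane, and the member Csf3r overlapped, and 1, Mpo, was higher. Of the markers that are not members, Ngp, a granule protein gene of maturing neutrophils, had 1.27 and 2.67 in WT and 0.227 and 0.760 in cKO. Ly6g, the surface marker most used for mouse neutrophils, had 0.0457 and 0.0670 in WT FAEE-SAP against 0.0368 and 0 in cKO. Mpo and Elane, which are expressed in immature granulocytes, were at 0 in both WT FAEE-SAP libraries and were 0.101 and 0.155 (Mpo) and 0 and 0.144 (Elane) in cKO FAEE-SAP. Ly6g was thus close to absent at this depth, while Ngp and Cd177 were called higher with FAEE-SAP in WT (log2 fold changes 2.54 and 2.11, limma adjusted p 0.0358 and 0.0286), having passed the filter through the FAEE-SAP libraries alone.

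Markers of some other cells differed in the same contrast, and those of others did not. Summed levels of 11 macrophage and monocyte markers were 64.3 to 77.04 in WT FAEE-SAP and 75.1 to 96.6 in cKO FAEE-SAP, with 0 of the 11 at 0 in both libraries of a group. The sums overlapped, but 9 of the 11 genes were higher in both cKO libraries than in both WT libraries, against 26.5% of all genes, and Marco, a scavenger receptor gene and a large part of the sum, was lower (32.9 and 25.9 in WT against 20.7 and 6.82 in cKO). Limma called 0 of the 11, with 6 of the 9 and Marco at an unadjusted p-value under 0.05, against 19.5% of all genes. Ccr2, a receptor of recruited monocytes and 1 of the 6, was 0.563 and 0.390 against 1.67 and 1.05. Platelet markers summed to 4.26 to 7.83 and 12.02 to 14.7, led by Pf4, which had 3.38 and 6.57 in WT and 10.5 and 9.98 in cKO, and Gp1ba was at 0 in both groups. Squamous epithelial markers summed to at most 0.473 in any library, with 2 of 5 at 0 in both WT FAEE-SAP libraries and 3 of 5 in both cKO FAEE-SAP libraries. Their sums were 0.395 to 0.473 in cKO FAEE-SAP and 0.0557 to 0.131 in WT FAEE-SAP, mostly from Krt14 (0.473 and 0.377 against 0.0980 and 0.0539), while Krt5, Krt6a, and Trp63 were at 0 in cKO FAEE-SAP. Acinar markers summed to 68230 and 70120 in WT FAEE-SAP against 163900 and 183000 in cKO, and 5 of the 9 were called higher in cKO, against 0.863% of all genes. Both cKO libraries lay above both WT libraries for 26.5% of all genes tested. Among endothelial markers, 4 of 5 did so (sums 13.8 to 17.9 against 11.5 to 11.6 in WT). Mesothelial markers did so for 3 of 4 (1.37 to 3.19 against 0.904 to 0.959), of which 1 of the 4 was tested. Red blood cell markers did so for 3 of 5, with sums that overlapped (150.5 to 176.8 against 57.3 to 152.1). Eosinophil, mast cell, and basophil markers did so for 3 of 9 (0.680 to 1.36 against 0.180 to 0.280), and 0 of the 9 were tested. Limma called 0 of the endothelial, mesothelial, and red blood cell genes tested. An unadjusted p-value under 0.05 was found for 2 endothelial genes, against 19.5% of all genes. Of the T cell, B cell, and adipocyte markers, 0 were apart between the genotypes. Among 6 fibroblast markers, 1 was higher in cKO, and of 5 ductal markers, 2 were higher and 2 lower. The part of these cells in the differences above was not tested.

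**Figure D5:**
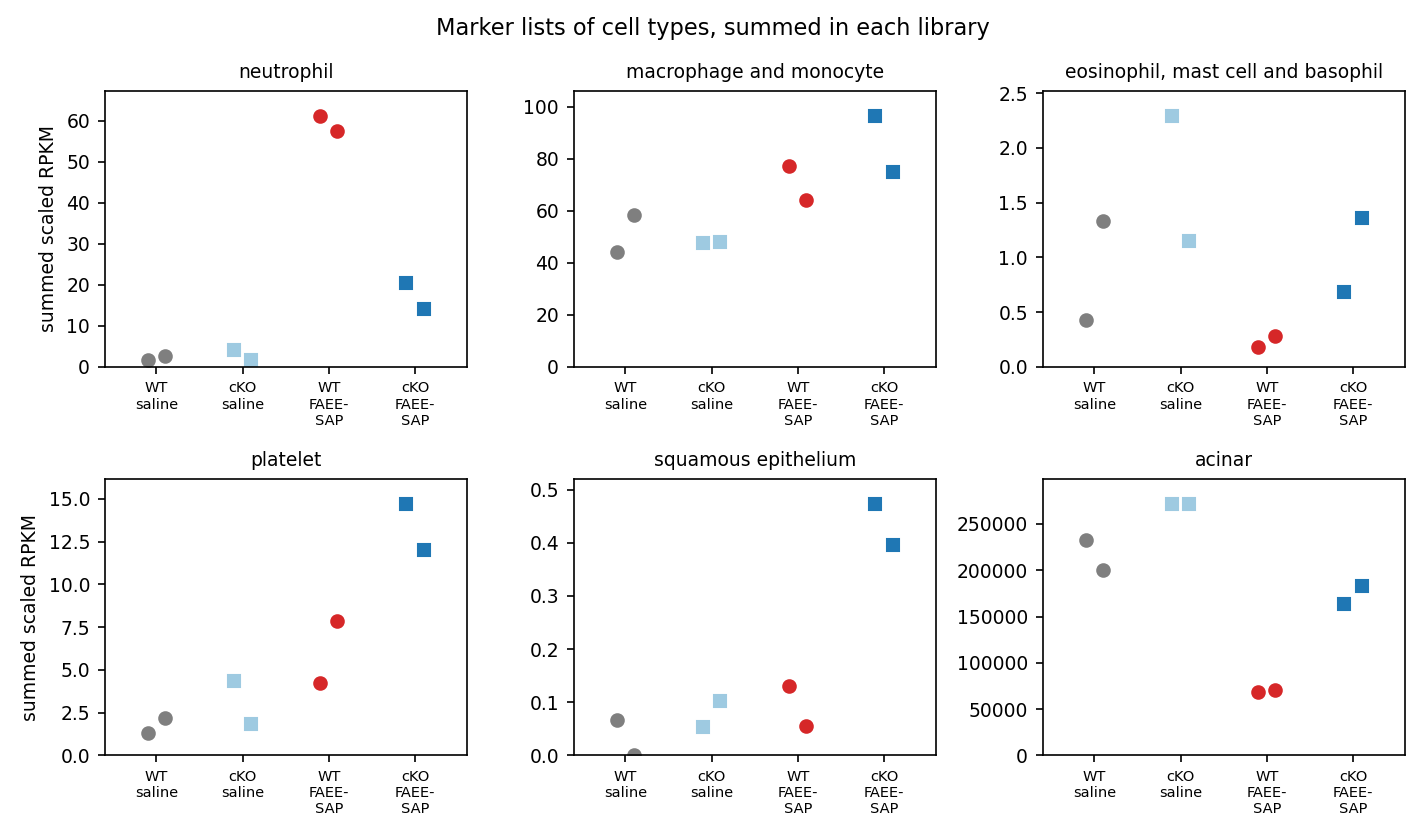
Summed scaled RPKM of 6 marker lists in each library by group, with points for libraries and each vertical axis starting at 0. Neutrophil markers are highest in WT FAEE-SAP (57.5 to 61.3), platelet markers in cKO FAEE-SAP (12.02 to 14.7), and acinar markers are lowest in WT FAEE-SAP.

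Genes with the most similar pattern were ranked among 11123 by Pearson correlation over the 8 libraries, as a description without a test, since all libraries fall into 4 groups. Closest to the mean of the members other than Csf3 were Il13ra1 (r = 0.995), Akr1b8 (0.995), Lilrb4a (0.994), Ankrd22 (0.989), and Cd177 (0.987). Cd177, a neutrophil surface protein gene, had 0.387 and 0.272 in WT FAEE-SAP against 0.159 and 0.128 in cKO. Closest to Csf3 were Vps4a (0.993), Tgoln1 (0.991), 4930539E08Rik (0.991), Mcmbp (0.989), and Wfdc12 (0.989). Wfdc12, like Csf3, was at 0 in all 4 saline libraries and had 0.417 and 0.428 in WT FAEE-SAP against 0 and 0.0428 in cKO. Among the members, Csf3 correlated with Fpr1 at 0.958 and with Fpr2 at 0.952 over the 8 libraries, and with Csf3r at 0.603, while Csf3r correlated with Cxcr2 at 0.968.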

How the data were processed

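RNA-Seq of mouse pancreas was read from 8 tables, 2 libraries for each of WT saline, cKO saline, WT FAEE-SAP, and cKO FAEE-SAP, grouped by their labels. The authors used a directional, paired-end library kit, filtered reads with fastp, and mapped them to Ensembl GRCm38 with CLC Genomics Workbench. They deposited 1 RPKM per gene and library (reads per kilobase of exon relative to the library's mapped reads), and how it was computed is not given in the sources used here. RPKM are not counts, so limma 3.58.1 in R 4.3.3 was used. Values were divided by the median of ratios over the libraries compared, genes were kept that reached an RPKM of 0.5 in 2 or more of them, and log2(scaled RPKM + 0.1) was tested with limma's trend option, which lets the prior variance follow expression. Printed levels use 1 scaling over all 8 libraries.

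The 10 genes and the gene lists were chosen with earlier results of these data known. Besides the 10 genes, up to 5 called genes of a list were named from cKO against WT with FAEE-SAP, or up to 3 from WT where there was none, with the CXCR2 ligands and the 5 genes most correlated with each pattern. Symbols of 95.1% of the genes matched GENCODE vM21. Multiplying RPKM by exonic length and library total gave whole reads, within 0.1, for 84.0% to 85.5% of values under 20 reads, and the reads worked out summed to 100.3% to 105.7% of the totals. Whether reads or read pairs were counted is not settled. For Retnlg, Mmp8, and Pglyrp1, the annotated length gave no whole reads, and a fitted length was used for their read numbers only. For the other 7 genes the annotated length was used. S100a8 and S100a9, Fpr1 and Fpr2, and the other members do not overlap each other. Alternatives were other scalings, filters, and pseudocounts, no trend, 1 model of all libraries, replicate number as a block, a weighted model on reads (voom), no fold minimum, and each library left out. The fit was tested on simulated data.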

Additional observations from a re-analysis of the deposited data

Results flagged for a closer look

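Fpr1 was singled out because its response to FAEE-SAP differed between genotypes by a direct test of that difference under the chosen settings, though not under several others. The log2 response of cKO minus that of WT was -4.60 (SE 0.43, 95% interval -5.61 to -3.60, limma adjusted p = 0.038 over 11133 genes). Its reads were 0 and 0 in WT saline, 162 and 169 in WT FAEE-SAP, 3 and 3 in cKO saline, and 3 and 5 in cKO FAEE-SAP. Fpr1 passed the filter on low values through the WT FAEE-SAP libraries alone. The call was lost without that filter (limma adjusted p = 0.086), with a pseudocount of 0.01 (0.0665), with a replicate block (0.107), with the weighted limma model on reads (0.135), and in each of the 6 fits without 1 library in which the gene was tested (0.0709 to 0.174).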

How the results depend on the processing

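Depth limits the group most at its low end, since Csf3, Fpr1, Fpr2, and Mmp8 had 0 to 4 reads in saline libraries and a fitted change of such genes moves with the pseudocount. Over 537 refits of single members, 473 kept their direction and their side of the threshold, 30 lost a call, 24 gained one, and 10 changed sign. The cause of these changes was not tested. Where 1 library was left out, the lone library of its group was assumed to vary like the others.

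In cKO against WT with FAEE-SAP (140 genes and 4 members called), values as deposited gave 4427 genes (73 higher, 4354 lower) and 9 members, quantile normalization 78 genes, no filter 0 genes and 0 members, no trend 57 genes, all 8 libraries in 1 model 295 genes, and voom 1 member. Scaling by a trimmed mean brought S100a9 and Csf3 past the threshold (limma adjusted p 0.0495 and 0.048). With 1 library left out, 0 to 139 genes and 0 to 6 members were called, and the log2 fold change of Csf3r was -0.53 to 0.27. With saline, values as deposited called 2 genes and quantile normalization 1. S100a9 changed sign there as deposited (-0.23), at a pseudocount of 0.01 (-0.016), and among fits without 1 library (-0.27 to 0.68).

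In FAEE-SAP against saline in WT (755 genes and 9 members), values as deposited called 7270 genes (7184 higher, 86 lower; median of all genes 1.24), no filter 259 genes and 8 members, 6 members were called at a pseudocount of 1, and an RPKM minimum of 2 kept 6 members and called 5. Without 1 library, 97 to 491 genes and 1 to 9 members were called. In cKO (5 genes and 0 members), values as deposited and all 8 libraries each called 15 genes, no filter 0, and fits without 1 library 0 to 6.

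For the difference in response (8 genes and 1 member), values as deposited called 791 genes (21 higher, 770 lower) and 5 members, quantile normalization 25 genes, no filter 0 genes and 0 members, an RPKM minimum of 2 35 genes, a pseudocount of 1 24 genes and 2 members, a pseudocount of 0.01 1 gene and 0 members, no trend 3 genes, and voom 0 members. Without 1 library, 0 to 4 genes and 0 members were called, Csf3r was -0.48 to 0.32, and Pglyrp1 was -0.65 to 0.35.

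Neither the labels nor the methods say whether replicate numbers mark a shared litter or day. Deviations of same-numbered libraries correlated across genes at 0.313 with FAEE-SAP, -0.395 with saline, -0.175 in WT, and 0.450 in cKO, not all above 0.1, so the numbers were not taken to pair samples. With a replicate block, cKO against WT with FAEE-SAP called 568 genes, including all 140, FAEE-SAP against saline called 442 genes in WT and 52 in cKO with 2 members (S100a8 and S100a9), and the difference in response called 0 genes and 0 members. With the numbers of the WT saline libraries exchanged, an alternative chosen after seeing the data, the replicate block called 68 genes and 2 members for the difference in response.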
